A study of Mus musculus with 8 samples.

Results

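The genes described here were 10 nuclear genes that regulate or carry out mitochondrial biogenesis. They included the transcription factor genes Nrf1, Gabpa and Esrra and the coactivator genes Ppargc1a, Ppargc1b and Pprc1. The others were Tfam, Tfb1m and Tfb2m, for factors that act on mitochondrial DNA or its ribosomes, and the polymerase gene Polg. A region was assigned to a gene where it overlapped the span of the gene model or lay within 20 kb of it. This gave 54 of the 59906 regions of the table, around 10 of 21896 protein-coding gene models. Counts per region came from ATAC-seq, an assay of open chromatin by transposase insertion. There were 8 libraries, all of splenic cDC1, the cross-presenting class of conventional dendritic cell, isolated by sorting. The cells came from WT mice (4 libraries) or from CD11c-Cre;OPA1 flox mice, labelled OPA1KO (4 libraries), in which Cre driven by CD11c regulatory sequence acts on a floxed gene for OPA1, the fusion GTPase of the inner mitochondrial membrane. Such a driver is active in CD11c-expressing cells in general. The labels used here give no age, name the Cre driver but not the transgenic line, and do not say whether WT mice carried Cre or the floxed allele. They also do not tie libraries to single mice. The p-values therefore rest on the variation among these libraries alone, and that variation may be technical.

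Mitochondria depend on both the nuclear and the mitochondrial genome, and the regulators studied here couple them. NRF1 and GABPA (also called NRF2, and distinct from the antioxidant factor NFE2L2) bind promoters of nuclear genes for respiratory subunits and for the factors that transcribe and copy mitochondrial DNA. The coactivators PGC-1alpha, PGC-1beta and PRC, encoded by Ppargc1a, Ppargc1b and Pprc1, bind NRF1, GABPA or the orphan receptor ERRalpha (Esrra) and raise the output of such promoters. TFAM packages mitochondrial DNA and starts its transcription together with TFB2M, while TFB1M methylates mitochondrial ribosomal RNA and POLG copies the genome.

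Each library held 4660826 to 7590578 counts in regions, and levels are given as CPM, counts scaled to library size with TMM factors. Of 9 cDC1 marker genes, 6 had a region within 1 kb of an annotated start, and the other 3, Xcr1, Clec9a and Itgae, had 4, 9 and 10 regions within 20 kb. Of the markers of other cells, a start region was found for 9 of 9 monocyte and macrophage, 4 of 5 cDC2, 3 of 4 plasmacytoid dendritic cell, 3 of 6 B cell, 1 of 5 T cell, 1 of 3 NK cell and 1 of 4 red cell genes. Summed over the genes with a start region, levels for cDC1 markers (6 genes) were 228.5 to 251.6 CPM in WT and 213.5 to 238.6 CPM in OPA1KO libraries. For monocyte and macrophage markers (9 genes) they were 164 to 199 CPM in WT and 145 to 173 CPM in OPA1KO libraries. Plasmacytoid markers were at 82.1 to 87.4 CPM in WT and 76.7 to 89.0 CPM in OPA1KO libraries. The cDC2 markers were at 60.6 to 71.8 CPM in WT and 56.1 to 62.3 CPM in OPA1KO libraries. B cell markers were at 13.1 to 21.1 CPM in WT and 12.1 to 20.7 CPM in OPA1KO libraries. Levels of T cell, NK cell and red cell genes over the 8 libraries lay at 4.41 to 8.53, 1.44 to 6.26 and 2.49 to 6.54 CPM.

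Promoter sequences were searched for the letters that NRF1 and GABPA are known to bind. Both factors are encoded by members, and whether they regulate the other members in these cells was not tested. The RefSeq table of GRCm38.p6 promoters held 10 promoters of 9 members (250 bases before the start and 50 after it), with a pair for Nrf1 and none matched for Ppargc1b. The 250 bases before the start are shown for the 5 members with a match, 5′ to 3′ on the strand of the gene. Capitals mark CCGGAAG (GABPA), GCGCANGCG and the shorter core TGCGCA (both NRF1), or AAGATGGCG (YY1), each on either strand. In order, they lie at chr16:84834874-84835123 (plus strand), chr10:71238045-71238294, chr7:79466274-79466523, chr19:6921809-6922058 and chr1:179546277-179546526 (all minus strand).
Gabpa: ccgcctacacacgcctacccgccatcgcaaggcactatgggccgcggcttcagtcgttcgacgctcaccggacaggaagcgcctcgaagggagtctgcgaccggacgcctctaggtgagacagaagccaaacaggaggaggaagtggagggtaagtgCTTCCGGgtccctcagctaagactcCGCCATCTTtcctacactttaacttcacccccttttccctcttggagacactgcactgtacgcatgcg
Tfam: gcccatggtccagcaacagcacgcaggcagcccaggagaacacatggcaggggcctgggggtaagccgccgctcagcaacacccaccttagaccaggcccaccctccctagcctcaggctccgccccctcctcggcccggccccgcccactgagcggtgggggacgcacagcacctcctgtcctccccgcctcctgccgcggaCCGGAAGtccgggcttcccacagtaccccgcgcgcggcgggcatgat
Polg: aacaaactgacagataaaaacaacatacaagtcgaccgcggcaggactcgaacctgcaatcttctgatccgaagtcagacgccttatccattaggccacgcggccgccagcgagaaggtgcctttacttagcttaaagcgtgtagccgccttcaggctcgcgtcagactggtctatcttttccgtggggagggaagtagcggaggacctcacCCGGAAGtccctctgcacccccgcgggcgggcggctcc
Esrra: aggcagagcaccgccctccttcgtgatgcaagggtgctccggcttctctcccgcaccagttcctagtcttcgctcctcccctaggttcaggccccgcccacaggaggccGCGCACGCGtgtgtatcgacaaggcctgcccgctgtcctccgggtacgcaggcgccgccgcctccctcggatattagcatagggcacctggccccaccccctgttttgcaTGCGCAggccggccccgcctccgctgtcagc
Tfb2m: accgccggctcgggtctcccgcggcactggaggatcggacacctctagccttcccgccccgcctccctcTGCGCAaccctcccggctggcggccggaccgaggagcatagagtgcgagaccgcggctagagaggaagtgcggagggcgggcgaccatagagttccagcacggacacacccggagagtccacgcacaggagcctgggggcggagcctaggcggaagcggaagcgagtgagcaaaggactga

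The GABPA letters lay in the promoters of 3 of 9 members, Gabpa itself, Tfam and Polg, against 8.86% of all 32851 promoters. In Tfam and Polg they were close to the start, with first bases at positions −47 and −38, and in Gabpa at −93. The YY1 letters were found in 1 member, Gabpa, at −68, and in 1.40% of all promoters. The NRF1 letters GCGCANGCG were in 2 of 9 members, Esrra (−141) and Tfb2m, against 6.25% of all promoters. In Tfb2m they fell after the start, at positions 13 to 21, in this stretch on the minus strand (chr1:179546248-179546272), where they are in capitals.
Tfb2m after the start: aggtcgttCGCATGCGCcattcgta

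The shorter NRF1 core TGCGCA was also in these 2 members, at −31 in Esrra and −181 in Tfb2m, and in 7.76% of all promoters. None of the 10 member promoters held the estrogen-related receptor letters TCAAGGTCA (0.423% of all promoters) or the CREB letters TGACGTCA (1.79%). A match shows only that these letters are present. Members were counted by gene and the shares by promoter, whether or not the promoter had an accessible region. Of 8857 accessible regions near a RefSeq start, described further below, 1739 had the GABPA letters and 1352 the NRF1 letters GCGCANGCG. The shares of all promoters are therefore not a like comparison for the members. The Polg stretch also contained a gene of another kind: the arginine tRNA model n-TRtcg5 covered positions −218 to −146 from the Polg start (chr7:79466419-79466491).

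All 10 members had an accessible region at a gene end, that is within 1 kb of an annotated start (or, for Ppargc1b, whose strand was not in the tables, of either end of its model). Where several lay there, the one with the highest mean CPM was used. Per kb of region, Esrra was the most accessible at 218 ± 21.1 CPM per kb (SD over all 8 libraries), at percentile 96.8 of 11147 gene-end regions, whose median was 54.3 CPM per kb. Next came Tfb2m (170.4 ± 8.98 CPM per kb) and Tfb1m (150.4 ± 12.3), then Gabpa (132 ± 7.55), Tfam (106 ± 15.1) and Polg (100.1 ± 7.43). Pprc1 (75.5 ± 5.80 CPM per kb) and Nrf1 (74.7 ± 4.19) were still above the median. The coactivator genes Ppargc1a (33.4 ± 5.83 CPM per kb) and Ppargc1b (25.8 ± 4.99) were lowest, at percentiles 32.0 and 24.5.

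Within this order, 2 pairs of neighbours could not be separated. Tfam was above Polg in 5 of 8 libraries, and Pprc1 above Nrf1 in 3 of 8. These were also the pairs whose order differed between the WT and OPA1KO means. Ppargc1a exceeded Ppargc1b in 7 of 8 libraries, and the other 6 steps held in 8 of 8 libraries, although the ranges over libraries overlapped for the steps from Tfb2m to Tfb1m, Tfb1m to Gabpa and Gabpa to Tfam. Levels per kb also depend on how widely a region was drawn, and widths ran from 334 bp at Ppargc1b to 1118 bp at Gabpa.

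The members differed in how their accessibility was laid out, as the map of regions by distance shows. At Polg, Gabpa, Tfb1m and Nrf1 a single region held 97.3%, 92.3%, 92.2% and 89.3% of the CPM in the window. At Ppargc1a it held 17.7%, and 11 of the 16 regions lay inside the gene model, which spans 662 kb. The RefSeq promoter of Ppargc1a, with its start at 51567725 on chromosome 5, had no region within 1 kb, and the nearest was 13.6 kb away. The gene-end region of Ppargc1a lay instead over the far 5′ end of the model, at 52115739 to 52116268. Regions inside the model between that end and the RefSeq start, such as chr5:52113088-52113420, lie upstream of that start. The internal RefSeq start of Nrf1 at 30076321 on chromosome 6 likewise had no region within 1 kb (nearest at 22.9 kb). Absence from the region set is not absence of accessibility, since the rule that made the set is not given in the sources used here.

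Of the 54 regions, 12 were at gene ends of the members, 16 inside them and 26 in their flanks. Some of these regions also served neighbours. The Gabpa region lay at the annotated starts of both Gabpa and Atp5j, which encodes a subunit of the mitochondrial ATP synthase, and the Tfb2m region at the starts of Tfb2m and Cnst. The Tfb1m region also overlapped the long noncoding RNA model 1700102H20Rik, which reached position −69 from the Tfb1m start. Likewise the Ppargc1b region overlapped the long noncoding RNA model Gm52354, and the Polg region the tRNA model named above. A further 7 regions in flanks lay at starts of neighbours, among them Nolc1 beside Pprc1, and Prdx5, a mitochondrial peroxiredoxin gene, with Trmt112 beside Esrra. Counts in a shared region cannot be assigned to 1 gene. The remaining 35 regions, at no annotated start, had a median of 3.92 CPM and their highest mean inside Ppargc1a (10.4 CPM in WT and 11.6 CPM in OPA1KO).

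WT and OPA1KO libraries were compared to ask whether loss of OPA1 changed accessibility at these regulators. None of the 54 member regions passed edgeR's quasi-likelihood test at an adjusted p of 0.05 over all 59247 tested regions (smallest edgeR adjusted p = 0.781), against 0.0203% of all tested regions. At an unadjusted p under 0.05 there was 1 of 54, a gene-end region lower in OPA1KO, against 6.38% of all tested regions (3.46% lower) and 4.03% of gene-end regions (3.22% lower). DESeq2 and limma-voom also called 0 of 54, with 0 and 1 at an unadjusted p under 0.05. Of the gene-end regions, 9 of 10 had a log2 fold change below 0 (OPA1KO minus WT, median −0.12). The same sign was found in 61.9% of all tested gene-end regions (median −0.04). Counts were also summed over all regions at gene ends, not only the strongest region of each gene. They made up 56.6% ± 0.341 of a WT library and 56.0% ± 0.625 of an OPA1KO library (SD, n = 4 each, two-sided exact permutation p = 0.143, smallest possible 0.0286). With these summed counts as the scale, chosen after seeing these values, 9 of 10 members were lower (median −0.08). The share of all tested gene-end regions that were lower was then 49.6% (median 0.0010). Member regions called numbered 0 on this scale as well, and the reason for the lower values was not tested. In these bulk libraries, fewer cells with an open region and less openness per cell cannot be told apart. Marker regions at the starts of monocyte and macrophage genes had a median log2 fold change of −0.52, with 8 of 9 below 0 and 0 of 9 past the edgeR test (4 at an unadjusted p under 0.05). Their summed level ranged over 164 to 199 CPM in WT libraries and 145 to 173 CPM in OPA1KO libraries. At the starts of cDC2 markers, 4 of 4 regions were also below 0 (median −0.13). Of the other lists, 3 of 6 cDC1, 1 of 3 plasmacytoid and 2 of 3 B cell regions were below 0. The single T cell, NK cell and red cell regions were above 0. The part of any such markers in the values below was not tested.

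**Figure D1:**
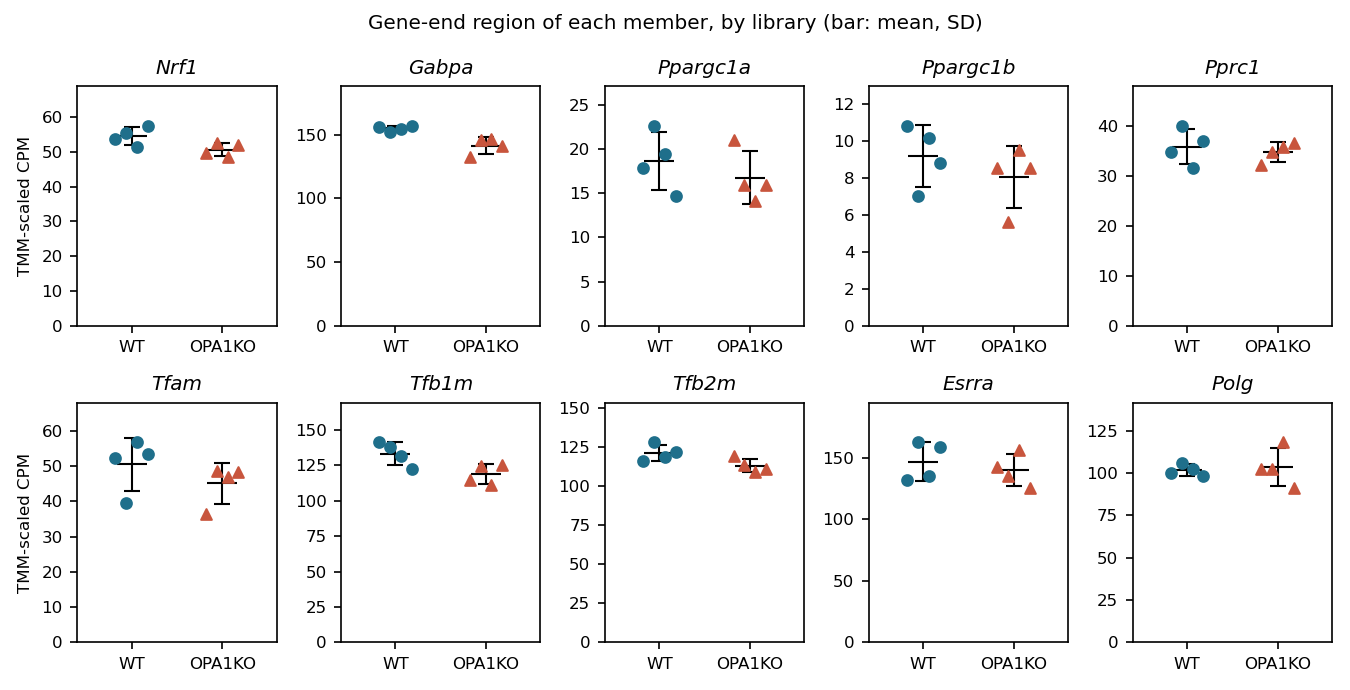
TMM-scaled CPM (y axis, from 0) of the gene-end region of each member in 4 WT (circles) and 4 OPA1KO (triangles) libraries, with the mean and SD as bars. The groups overlap in 9 of 10 panels; at Gabpa the OPA1KO libraries lie at 132 to 146 and the WT libraries at 152 to 157.

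Among the transcription factor genes, Gabpa was the member whose groups were apart at the gene end. GABPA is the DNA-binding, ETS-domain subunit of a complex that drives many respiratory genes. Its region (chr16:84834671-84835789, GRCm38) measured 156, 152, 155 and 157 CPM in WT replicates 1 to 4. In OPA1KO replicates 1 to 4 it measured 132, 146, 146 and 141 CPM. Every OPA1KO library was below every WT library, a pattern found in this direction in 2.26% of tested gene-end regions and 2.11% of all tested regions. The means were 155 ± 2.14 and 141 ± 6.36 CPM (SD, n = 4 each). The log2 fold change was −0.13 ± 0.08 (SE), with a 95% interval from −0.29 to 0.02 and an edgeR adjusted p of 0.825.

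Nrf1 encodes the factor that binds GC-rich palindromes in promoters of respiratory genes. Its gene-end region (chr6:30047796-30048499) had WT values of 53.5, 55.5, 51.5 and 57.4 CPM and OPA1KO values of 49.5, 52.6, 48.4 and 52.0 CPM. The highest OPA1KO libraries were above the lowest WT library, so the groups overlapped. The log2 fold change was −0.11 ± 0.10 (edgeR adjusted p = 0.910). For Esrra, the ERRalpha gene, the region (chr19:6921628-6922284) ranged from 132 to 162 CPM in WT and from 125 to 156 CPM in OPA1KO. This near-complete overlap gave a log2 fold change of −0.07 ± 0.09 (edgeR adjusted p = 0.936).

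At the gene ends of the coactivator genes the groups overlapped. The gene-end region of Ppargc1a, whose product is the inducible PGC-1 family member, measured 17.8, 22.6, 19.4 and 14.7 CPM across WT libraries, against 21.1, 15.9, 14.1 and 15.9 CPM across OPA1KO libraries (log2 fold change −0.15 ± 0.17, edgeR adjusted p = 0.926). Both groups held high and low libraries. The region of Ppargc1b (chr18:61400286-61400620) held 10.8, 7.01, 10.1 and 8.79 CPM (WT) and 8.54, 5.62, 9.52 and 8.53 CPM (OPA1KO) (−0.18 ± 0.22, edgeR adjusted p = 0.936). At so low a level the 95% interval was wide, −0.63 to 0.27. Pprc1, which encodes the serum-inducible family member PRC, had 31.6 to 40.1 CPM in WT and 32.1 to 36.7 CPM in OPA1KO at its gene end (chr19:46056275-46056744; −0.04 ± 0.12, edgeR adjusted p = 0.977).

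Of the regions at the factors that act on mitochondrial DNA or its ribosomes, that of Tfb1m (chr17:3557313-3558151) had the smallest p of the 54. WT libraries had 141, 138, 131 and 123 CPM there, and OPA1KO libraries 115, 124, 111 and 125 CPM. The 3 highest values were WT and the 2 lowest OPA1KO, but WT replicate 4 was below 2 OPA1KO libraries. The means were 133 ± 8.08 and 118.9 ± 6.89 CPM (n = 4 each, log2 fold change −0.17 ± 0.08), with an unadjusted edgeR p of 0.0494 and an adjusted p of 0.781. The unadjusted p was 0.0284 in limma-voom and 0.0737 in DESeq2. Leaving out WT replicate 1 gave an unadjusted edgeR p of 0.128, WT replicate 2 0.0777 and WT replicate 3 0.0735. Without OPA1KO replicate 1 the unadjusted edgeR p was 0.104, and without OPA1KO replicate 3 it was 0.142. It was under 0.05 without WT replicate 4 (0.029), OPA1KO replicate 2 (0.048) or OPA1KO replicate 4 (0.036).

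Tfam, the gene for the packaging factor of mitochondrial DNA, had a gene-end region (chr10:71237892-71238345) with 52.3, 39.6, 56.7 and 53.4 CPM in WT libraries and 36.6, 48.6, 47.1 and 48.4 CPM in OPA1KO libraries. WT replicate 2 and OPA1KO replicate 1 were each low in their group, and the groups overlapped (log2 fold change −0.16 ± 0.12, edgeR adjusted p = 0.877). The value was −0.26 without WT replicate 2 and −0.07 without OPA1KO replicate 1. Tfb2m (chr1:179546107-179546795) showed 116, 128, 119 and 122 CPM over the WT libraries, and 119, 114, 109 and 111 CPM over the OPA1KO libraries. OPA1KO replicate 1 lay within the WT range and the other 3 below it (−0.10 ± 0.08, edgeR adjusted p = 0.886). At Polg (chr7:79465822-79466848), the exception to the lower values, the WT levels were 100.2, 106, 102 and 98.4 CPM and the OPA1KO levels 103, 102, 118 and 91.2 CPM. Here the OPA1KO libraries were more spread than the WT libraries and included both the highest and the lowest value (0.03 ± 0.09, edgeR adjusted p = 0.984).

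**Figure D2:**
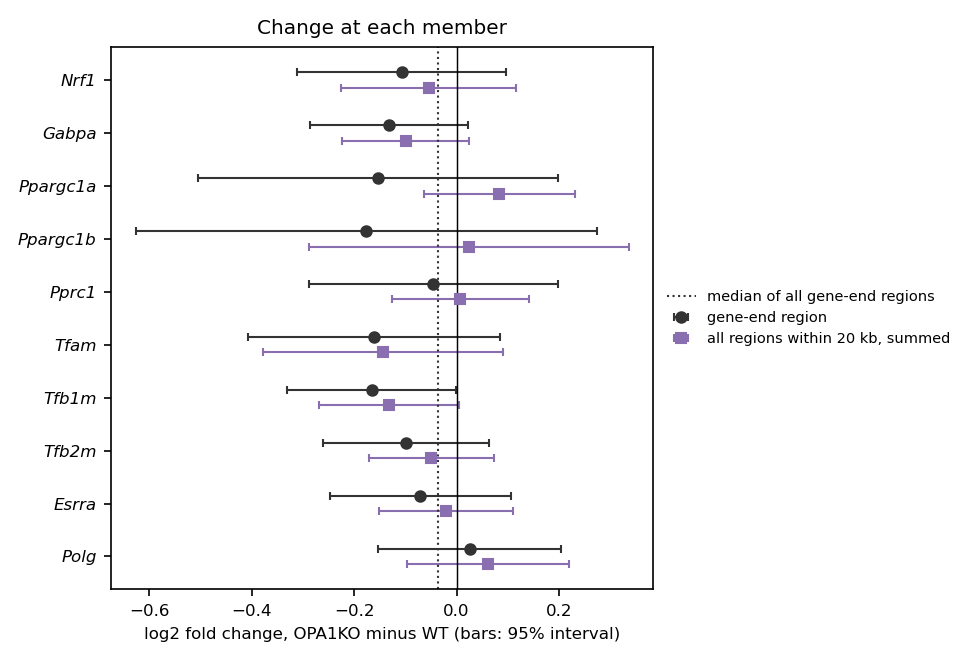
Log2 fold change (x axis, OPA1KO minus WT, bars are 95% intervals) at the gene-end region (circles) and over all regions within 20 kb (squares) of each member. Each interval of the summed windows includes 0, and the dotted line is the median of all gene-end regions, −0.04.

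Summing all regions within 20 kb gave each gene 1 value, tested against the same sums for 16673 gene windows. None of the 10 members was called (edgeR adjusted p = 0.999 for each), against 0.024% of all windows. At an unadjusted p under 0.05 there were also 0 of 10, against 4.58% of all windows. DESeq2 and limma-voom also called 0 of 10. In 6 of 10 windows the log2 fold change was below 0, against 48.9% of all windows. Tfb1m (−0.13 ± 0.06), Tfam (−0.14 ± 0.11) and Gabpa (−0.10 ± 0.06) were the lowest, and Ppargc1a (0.08 ± 0.07) and Polg (0.06 ± 0.07) the highest. The Gabpa window summed to 176, 163, 164 and 166 CPM (WT) and 144, 159, 158 and 156 CPM (OPA1KO), so the groups did not overlap. This was 1 of 10 members, against 3.18% of all windows (2.19% with OPA1KO lower), and 92.3% of this window was the gene-end region already described. For Ppargc1a the ranges were 91.5 to 104 CPM and 95.6 to 109 CPM.

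Over all 54 regions, 27 had a log2 fold change below 0 and 27 above it, against 50.7% below 0 of all tested regions. Of 16 regions inside the genes, 12 had a log2 fold change above 0 (median 0.16), against 52.3% of all tested regions not at gene ends (median 0.02), and 11 of the 16 belonged to Ppargc1a. The 26 flanking regions were split, 13 above and 13 below 0 (median 0.01). Over its 16 regions Ppargc1a had 9 above and 7 below 0 (median 0.13, range −0.59 to 0.82).

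The groups did not overlap in 2 of the 54 regions, against 3.95% of all tested regions. The first was the Gabpa gene end, lower in OPA1KO, and the other a weak region inside Ppargc1a (chr5:52065087-52065357), higher in OPA1KO. The WT libraries had 5.32, 5.30, 5.06 and 3.77 CPM in the latter, and the OPA1KO libraries 7.26, 5.62, 5.90 and 5.90 CPM. The lowest OPA1KO value was only just above the highest WT values (log2 fold change 0.34 ± 0.25, edgeR adjusted p = 0.873).

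**Figure D3:**
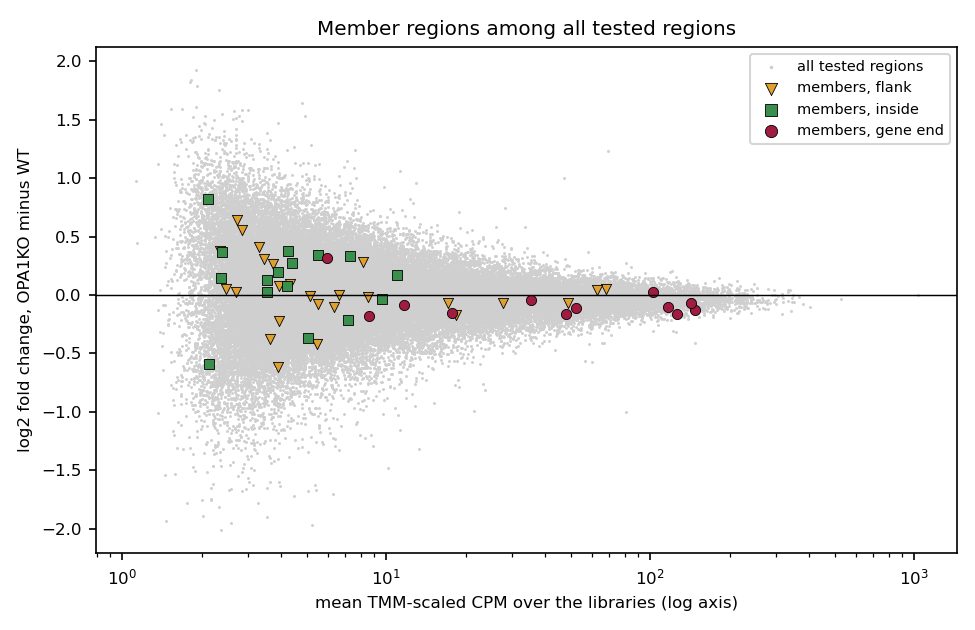
Log2 fold change (y axis, OPA1KO minus WT) against mean TMM-scaled CPM over the 8 libraries (x axis, log scale) for all 59247 tested regions (grey) and the 54 member regions by place. Member regions inside genes and in flanks are mostly weak and scattered within the grey cloud, and the strong gene-end regions lie close to 0.

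The strongest region of each member away from its own gene end had a log2 fold change from −0.42 to 0.55, and 0 of 10 were called. The Nolc1 start beside Pprc1 averaged 66.7 ± 5.74 CPM in WT and 69.2 ± 6.90 CPM in OPA1KO (0.05 ± 0.10, edgeR adjusted p = 0.964). The Prdx5 and Trmt112 starts beside Esrra were at 62.2 ± 5.87 and 63.9 ± 5.34 CPM (0.04 ± 0.10, edgeR adjusted p = 0.976), and the Smyd3 start beside Tfb2m at 28.3 ± 3.08 and 26.95 ± 1.48 CPM (−0.07 ± 0.13, edgeR adjusted p = 0.962). These neighbours overlapped between groups. The largest value of these regions was at a weak flank of Polg, with 2.28, 2.03, 2.53 and 2.51 CPM over WT and 2.56, 1.45, 6.43 and 2.95 CPM over OPA1KO libraries. OPA1KO replicate 3 alone was high there, and without it the log2 fold change of 0.55 ± 0.40 was 0.0068. The lowest was a flank of Gabpa at 6.21 ± 2.24 and 4.68 ± 1.15 CPM (−0.42 ± 0.28, edgeR adjusted p = 0.855). WT replicate 1, at 9.43 CPM, was high there against 4.22 to 5.74 CPM in the other WT libraries, and without it the value was −0.13.

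The search for letters was extended from the members to the 8857 tested gene-end regions with a RefSeq start within 1 kb. Levels were described by letters, with no test. The median was 82.0 CPM per kb for 1352 regions with the NRF1 letters GCGCANGCG in such a promoter, 73.6 for 1739 with the GABPA letters CCGGAAG, 92.8 for 309 with both and 49.2 for 6075 with neither. The median log2 fold changes were −0.03 with NRF1 letters, −0.04 with GABPA letters and −0.03 with neither. Lower values were found for 65.0%, 64.3% and 60.3% of these regions, and 0 of them passed the edgeR test. At an unadjusted p under 0.05 there were 42 of the 1352 (3.11%), 61 of the 1739 (3.51%) and 263 of the 6075 (4.33%).

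**Figure D4:**
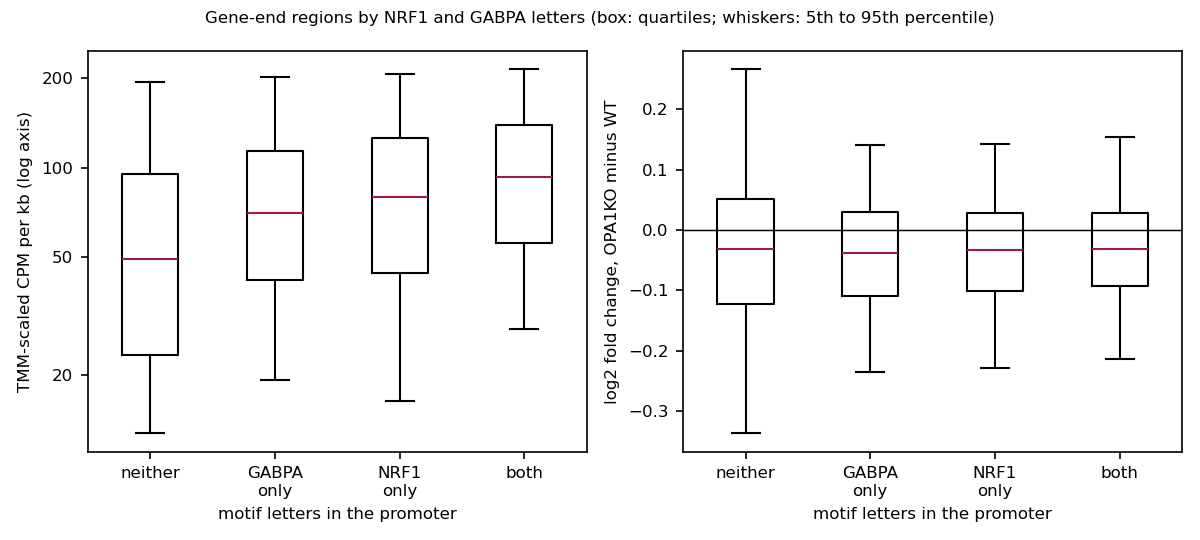
Levels (left, TMM-scaled CPM per kb, log axis) and log2 fold changes (right, OPA1KO minus WT) of 8857 gene-end regions by the NRF1 and GABPA letters in their promoters, with boxes for quartiles and whiskers from the 5th to the 95th percentile. Levels are higher with the letters, with medians of 79.4 (NRF1 only), 70.4 (GABPA only) and 92.8 (both) against 49.2, while the medians on the right lie between −0.04 and −0.03.

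The pathway beyond the members was read from 3 lists, against 61.9% of all tested gene-end regions below 0 and 4.03% at an unadjusted p under 0.05. For replication, transcription and nucleotide supply of mitochondrial DNA, 22 of 25 genes had a gene-end region, 14 of them lower and 8 higher (median log2 fold change −0.03), and 0 passed the edgeR test or an unadjusted p of 0.05. The smallest p values were at Atad3a, which encodes an ATPase associated with mitochondrial nucleoids (0.21 ± 0.10), the primase-polymerase gene Primpol (0.16 ± 0.09) and the mitochondrial topoisomerase gene Top1mt (−0.24 ± 0.16). At Atad3a the OPA1KO libraries (56.4 to 61.2 CPM) were above the WT libraries (42.3 to 55.7 CPM); 3.08% of all tested gene-end regions had groups without overlap. At Primpol and Top1mt the groups overlapped.

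Partners and regulators of the PGC-1 axis had 30 of 31 genes matched and 27 with a gene-end region, 11 lower and 16 higher (median 0.01), and 0 passed the edgeR test, with 1 at an unadjusted p under 0.05. That was Perm1, an inducible coregulator of muscle oxidative genes, at 36.5 to 46.8 CPM in WT and 31.3 to 37.0 CPM in OPA1KO, which overlapped narrowly (−0.30 ± 0.12, edgeR adjusted p = 0.673). The retinoid receptor gene Rxra (−0.38 ± 0.21) and the CREB gene Creb1 (−0.12 ± 0.08) followed. Rxra was at −0.22 without OPA1KO replicate 4, and Creb1 at −0.05 without WT replicate 2. Of known NRF1 or GABPA target genes, 27 of 28 had a gene-end region, 19 lower and 8 higher (median −0.05), with 0 past the edgeR test and 2 at an unadjusted p under 0.05. These counts were near the shares of all tested gene-end regions, 61.9% and 4.03%. The 2 genes at an unadjusted p under 0.05 were Cox7a2 (−0.24 ± 0.10, edgeR adjusted p = 0.686) and Cox6b1 (−0.33 ± 0.15, edgeR adjusted p = 0.742). Both are subunit genes of cytochrome c oxidase. At Cox7a2 the ranges were 71.0 to 80.7 CPM in WT and 60.2 to 73.8 CPM in OPA1KO. Vdac1, the outer membrane channel gene, came next at 36.6 to 41.4 and 33.9 to 36.4 CPM, without overlap, as in 2.26% of all tested gene-end regions in this direction (−0.16 ± 0.11, edgeR adjusted p = 0.869).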

How the data were processed

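ATAC-seq of 8 libraries of sorted splenic cDC1 was deposited as 1 table. Per the submitters' processing notes, the authors used MACS2 2.1.0.20150603, bedtools, SAMtools, Picard 1.65 and cutadapt 1.9 with builds mm10 and GRCm38. Settings, read shift and the rule for the region set are not given in the sources used here. Whole-number counts were taken as deposited by the authors, not normalized, at 4660826 to 7590578 per library. Coordinates of regions are as in the table.

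Regions were filtered with filterByExpr (59247 tested, 659 left out), scaled with TMM and tested with edgeR 4.0.16 in R 4.3.3 (glmQLFit with robust estimation, glmQLFTest), 4 WT against 4 OPA1KO without covariates. Benjamini-Hochberg adjustment ran over every tested region, or over 16673 gene windows (counts summed within 20 kb), with calls at 0.05. The common dispersion was 0.0270. Standard errors and 95% intervals came from the same fits. Single values were compared by exact permutation. Gene models and promoters were from RefSeq (GRCm38.p6). The procedure was tested on simulated data with changes larger than those seen at the member gene ends. That test does not show whether changes as small as those could be called.

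Alternatives were DESeq2 1.42.0, limma-voom 3.58.1, other scalings and filters, other windows, a replicate block and leaving out each library. The members and lists were chosen with earlier results of these data known. The text names all members with their gene-end region, summed window and strongest other region, member regions with an unadjusted p under 0.05 (1, the Tfb1m gene end) or without overlap, and up to 3 genes per list by smallest p.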

Additional observations from a re-analysis of the deposited data

Results flagged for a closer look

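In 4 of 80 groups of 4 libraries checked, the highest or lowest library stood apart from the other 3 (Dixon's test at the 95% level), which chance gives in about 1 in 20 groups. At the Tfam gene end, OPA1KO replicate 1 was at 36.6 CPM, with the others at 47.1 to 48.6 CPM. At the Nolc1 start beside Pprc1, OPA1KO replicate 4 was at 58.9 CPM, with the others at 71.4 to 73.2 CPM. The summed Pprc1 window, which contains that region, was at 139.5 CPM in the same library and at 158 to 161 CPM in the others. At the Smyd3 start beside Tfb2m, WT replicate 1 was at 23.7 CPM, with the others at 29.7 to 30.1 CPM.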

How the results depend on the processing

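Member regions and member windows called numbered 0 under each alternative run. Over 540 alternative values of 30 member results, 509 kept their direction and stayed above the threshold, and 31 turned in direction, all of them uncalled (smallest adjusted p of any alternative 0.421). The gene end of Ppargc1b turned with all regions at its start summed (0.062), the Ppargc1b region inside the gene with gene-end totals (0.0010), the Tfam flank with library totals (0.0040) and gene-end totals (0.021), and the Esrra window with regions within 50 kb (0.020). Leaving out 1 library gave ranges that cross 0 at the gene ends of Pprc1 (−0.090 to 0.011) and Polg (−0.045 to 0.085). The same held for the strongest other regions of Nrf1 (−0.16 to 0.24), Ppargc1a (−0.058 to 0.41), Ppargc1b (−0.22 to 0.11), Tfam (−0.15 to 0.15), Tfb1m (−0.022 to 0.26) and Esrra (−0.011 to 0.099), and for the windows of Ppargc1b (−0.085 to 0.11), Pprc1 (−0.024 to 0.046), Esrra (−0.053 to 0.020) and Polg (−0.011 to 0.11). Members lower at the gene end numbered 8 of 10 without WT replicate 2, 10 of 10 without OPA1KO replicate 3, 8 of 10 with all regions at a start summed (49.4% of all genes lower) and 9 of 10 under the other settings. Leaving out 1 library also moved, without a turn, the gene ends of Tfam (−0.26 to −0.071), Ppargc1a (−0.29 to −0.043), Ppargc1b (−0.29 to −0.045), Esrra (−0.13 to −0.018), Rxra (−0.55 to −0.22), Creb1 (−0.15 to −0.049) and Top1mt (−0.39 to −0.14).

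Over all 59247 regions, 12 were called by edgeR, 38 by DESeq2 and 4 by limma-voom, and 1 to 68 without 1 library (68 without WT replicate 2, 22 without OPA1KO replicate 4, 4 without OPA1KO replicate 2, and 1 without WT replicate 3 or 4 or OPA1KO replicate 1 or 3). Of gene windows, 4 were called by edgeR, 10 by DESeq2, and 3 to 26 without 1 library (26 without WT replicate 2). The cause was not tested. With the replicate number as a block, 1 region was called and 4 gene windows. Same-numbered libraries did not deviate together (r = −0.132, −0.011, −0.078 and −0.072 across regions, which are not independent), so the numbers were not taken to pair libraries. Depth limits the weak regions most: the 95% interval of the Ppargc1b gene end was −0.63 to 0.27.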

Other observations

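The member promoters differed in base composition. The main Nrf1 promoter had 77.0% G and C and 43 CpG pairs in the 250 bases before and 50 after its start, at percentiles 97.6 and 97.4 of all promoters. Tfb2m had 67.3% and 32 CpG pairs, Esrra 66.0% and 25, Tfam 70.3% and 21, Polg 59.3% and 26, Gabpa 59.3% and 22, and Tfb1m 60.0% and 16. Pprc1 (50.0% and 14 CpG pairs) had fewer G and C than the median promoter, at 52.7%, but more CpG pairs than its 7. Among the promoters in the table, the starts of Ppargc1a (48.7% and 5 CpG pairs) and inside Nrf1 (46.3% and 2), which had no region within 1 kb, were below the median in both.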
